A study of Mus musculus with 3 samples.

Results

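Stromal cells of the mouse cornea and limbus that carry much Mmp3 and Timp1 RNA were set against the remaining stromal cells of the same libraries. Cells with fewer than 500 genes, or with over 20% of their UMIs (unique molecular identifiers, 1 per captured RNA molecule) from mitochondrial genes, were left out. The high cells were then chosen by measured RNA levels. A cell was stromal at 100 or more UMIs of Dcn, Lum, Kera, Col1a1 and Col1a2 together per 10000 UMIs and under 100 per 10000 of Krt5, Krt14 and Krt12, and Mmp3/Timp1-high at 10 or more per 10000 of Mmp3 and Timp1 together. This rule found 381 Mmp3/Timp1-high cells among 23863 kept cells, and 1560 other stromal cells. The anterior eye segment, without lens, retina, iris, trabecular tissue and most conjunctiva, was digested with liberase and trypsin from 3 wild-type mice, 1 per group and 1 droplet library (10x Genomics) each. The groups were nitrogen mustard (NM) injury with losartan, NM injury with saline, and no injury. NM is an alkylating agent used as a model of chemical eye injury, and losartan blocks the type 1 angiotensin II receptor. The labels state no time, dose, sex or age, and no step that isolates stromal cells. With 1 library per group there is no test across animals, so every difference is a description, and the intervals given (95%) cover counting error only.

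Keratocytes are the resting stromal cells of the cornea, and they make keratocan (Kera), lumican (Lum), decorin (Dcn) and the collagens of a clear matrix. After a wound they can leave that state, turn into fibroblasts that repair and remodel matrix, and answer interleukin 1 from the epithelium with proteases and chemokines that bring in neutrophils. Mmp3 (stromelysin 1) cuts proteoglycans and activates other metalloproteinases, and Timp1 is a secreted inhibitor of the same enzymes.

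The share of stromal cells that were Mmp3/Timp1-high was 38.8% (35.3 to 42.3, exact Clopper-Pearson) in the losartan library, 293 of 756 cells. It was 4.59% (3.20 to 6.35) in the saline library, 34 of 741 cells, and 12.2% (9.27 to 15.6) in the uninjured library, 54 of 444 cells. The order was losartan, uninjured, saline, and the 3 intervals do not overlap. Most of the Mmp3/Timp1-high cells, 76.9%, therefore came from 1 mouse. After every cell was thinned to 2000 UMIs and the rule applied again, the shares were 46.2%, 4.97% and 13.5%, and thinning left out 132, 172 and 32 stromal cells of the losartan, saline and uninjured libraries. Among cells of 5000 or more UMIs the shares were 66.5% (264 of 397), 17.5% (11 of 63, 9.05 to 29.1) and 11.5% (42 of 366), so that the saline and uninjured intervals then overlapped.

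**Figure D1:**
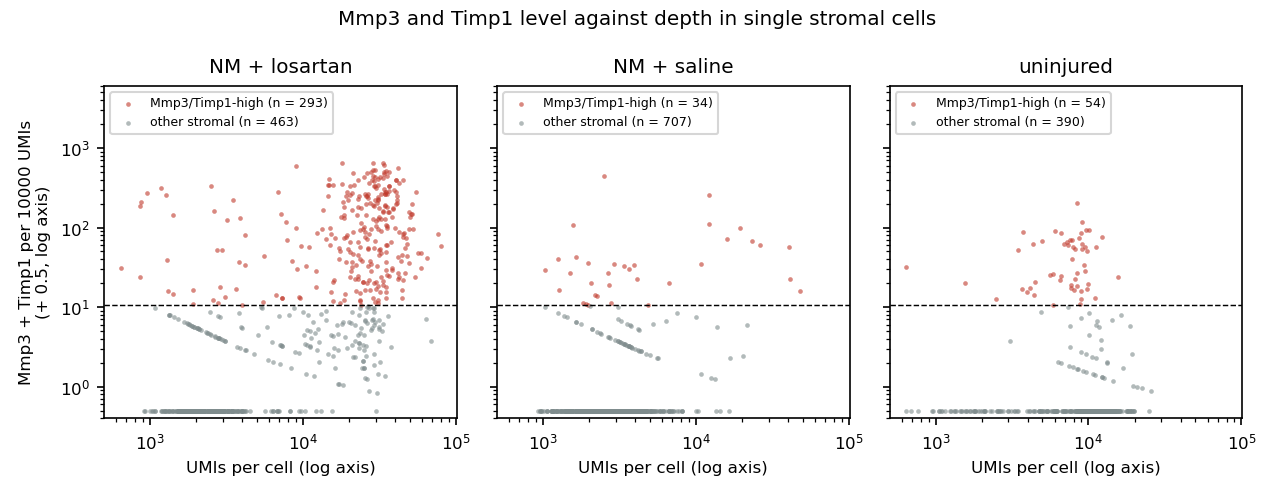
Each point is 1 stromal cell, with its UMIs on the x axis (log) and its Mmp3 plus Timp1 level per 10000 UMIs, plus 0.5, on the y axis (log); red points are Mmp3/Timp1-high, grey points are other stromal cells and the dashed line is the limit of 10. Most of the 293 high cells of the losartan library lie at 5000 UMIs or more, while most of its 463 other stromal cells lie below.

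Depth went along with the rule in the losartan library. Its Mmp3/Timp1-high cells had a median of 26945 UMIs and its other stromal cells 2630, and 90.1% and 28.7% of them reached 5000 UMIs. In the saline library the medians were 2843.5 and 2822 UMIs, and in the uninjured library 7864.5 and 10793 UMIs. The gene list counts of the losartan library are therefore also given between its 264 high and 133 other cells of 5000 or more UMIs, called deep cells. The median share of mitochondrial UMIs was 1.69% in high and 3.45% in other cells of the losartan library, 2.32% and 4.39% in saline cells, and 2.10% and 1.80% in uninjured cells. The genes of the list for RNA quality and nuclear RNA summed to 17636 CPM in losartan high and 27416 CPM in other cells, and to 30408 and 47263 CPM in saline cells. The part of depth and RNA quality in the results was not tested beyond the deep cells. In the saline library 11 of the 34 high cells held 82.1% of the UMIs of that group. The libraries held 5887, 6814 and 13270 barcodes with 92753670, 83155441 and 177003042 UMIs (losartan, saline, uninjured), and 7 to 28 barcodes were shared between any 2 libraries, none of them Mmp3/Timp1-high in both.

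Mmp3 and Timp1 chose the cells, and their levels describe them. Mmp3 had 13298, 3386 and 4741 UMIs per 1000000 (counts per that number, CPM, over the summed cells of a group) in the high cells of the losartan, saline and uninjured libraries, against 127, 30.3 and 31.0 CPM in the other stromal cells. Timp1 had 2069, 2215 and 22.4 CPM in the high cells, against 192, 18.3 and 2.05 CPM in the others. The uninjured high cells were thus high in Mmp3 and almost without Timp1. Of the 293 losartan high cells 107 had 10 or more per 10000 of both genes, 129 of Mmp3 alone, 43 of Timp1 alone, and 14 only of the sum. Of the 34 saline cells these kinds numbered 5, 23, 5 and 1, and all 54 uninjured cells were of the Mmp3 kind. Near the limit, 26 losartan cells lay between 10 and 15 per 10000 with a median of 11.9, and 62 lay between 5 and 10 with a median of 6.56.

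Free RNA in droplets adds some UMIs of these genes to every cell. In cells of the losartan library with 100 or more UMIs of S100a8 and S100a9 per 10000 (neutrophils), Mmp3 was at 38.7 CPM and Timp1 at 10.8 CPM. Both pooled levels lie far under the limit of 10 per 10000, but a cell of low depth can reach that limit with very few UMIs. An Mmp3 UMI was found in 9.06% of these neutrophils, at a median depth of 2657 UMIs. Under 3 UMIs of Mmp3 and Timp1 were held by 5 losartan, 4 saline and 1 uninjured high cells. The part of free RNA in the choice of cells was not tested. Kera, which was part of the stromal rule, was low in the high cells of all 3 libraries, with 245, 204 and 294 CPM in the losartan, saline and uninjured libraries, against 1625, 3505 and 8183 CPM in the other stromal cells. Among losartan cells of 5000 or more UMIs the gap in Kera was smaller, with 242 CPM in high cells and 501 CPM in others. Other keratocyte genes did not all follow Kera. Lum had 4809 and 4619 CPM in losartan high and other cells. Dcn had 14532 and 22587 CPM there, and 47931 and 37750 CPM in uninjured cells. Of 19 keratocyte list genes at 10 CPM or more, rule genes left out, 1 was 2-fold higher in losartan high cells and 2 lower. The list median log2 ratio was -0.08. Of all tested genes 1.75% were higher and 3.07% lower.

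The promoters of both rule genes and of Ptx3, the gene with the highest ratio below, are shown from 150 bases before to 30 bases after the RefSeq start site (GRCm38.p6), 5′ to 3′ on the gene's strand. Capitals mark matches on either strand to the AP-1 motif TGANTCA or to the 10-base consensus of NF-kB, the factors best known for control of Mmp3 and of acute phase genes.
Mmp3, chr9:7445672-7445851, plus strand: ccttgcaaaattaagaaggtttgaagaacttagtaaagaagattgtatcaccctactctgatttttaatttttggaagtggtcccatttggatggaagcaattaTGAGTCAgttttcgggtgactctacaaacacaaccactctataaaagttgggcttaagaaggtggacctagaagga
Timp1, chrX:20870016-20870195, plus strand: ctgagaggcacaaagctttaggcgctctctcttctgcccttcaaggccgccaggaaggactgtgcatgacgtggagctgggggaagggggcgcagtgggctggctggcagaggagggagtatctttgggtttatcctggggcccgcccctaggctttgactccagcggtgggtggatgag
Ptx3, chr3:66219737-66219916, plus strand: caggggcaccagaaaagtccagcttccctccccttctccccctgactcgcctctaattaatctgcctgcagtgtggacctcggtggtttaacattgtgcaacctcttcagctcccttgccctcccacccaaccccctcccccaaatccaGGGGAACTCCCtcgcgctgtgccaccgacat
In the whole windows of 250 bases before to 50 after the start, Mmp3 had 1 AP-1 match, which begins 46 bases before the start, and Ptx3 had 2 overlapping NF-kB matches at the start itself. Of all 32851 promoters listed by RefSeq 7.81% held an AP-1 match and 8.46% an NF-kB match. RefSeq promoters were at hand for 7 of the 12 genes with the highest ratios, and among these 0 had an AP-1 match and 1 (Ptx3) an NF-kB match. A match is a run of letters and not a measured site.

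The losartan library gave the best counted contrast, with 7735192 UMIs in high cells and 3285886 in others. Of 8364 genes at 10 CPM or more over both groups, rule genes left out, 146 (1.75%) were at least 2-fold higher in Mmp3/Timp1-high cells and 257 (3.07%) at least 2-fold lower, on a scale of CPM + 5. The median log2 ratio over all tested genes was -0.01. Among cells of 5000 or more UMIs 104 genes (1.25% of 8316) were higher and 113 (1.36%) lower. Of the 146 higher genes 92 were 2-fold higher there. Of the 257 lower genes 186 reached 10 CPM there and 88 were 2-fold lower. The deep cells held 99.1% of the UMIs of the high cells and 76.5% of those of the others, so these are largely the same counts. The counts of calls and their balance moved with the setting, with 1188 higher and 780 lower after thinning, 1295 and 469 with every cell weighing the same, and 2005 and 546 against other cells of 2000 or more UMIs that had 0 UMIs of Mmp3 and Timp1.

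The gene with the highest ratio was Ptx3. Ptx3, a soluble pattern recognition protein, had 474 CPM in losartan high cells and 11.9 CPM in the others (ratio 39.9, 29.2 to 56.2). It had 0 UMIs in the high cells of both other libraries. By counting error alone this allows up to 9.57 CPM for the saline group and 7.47 CPM for the uninjured group (3 counts each). Csf3, which drives neutrophil production, had 211 CPM in losartan high cells and 6.09 CPM in others (34.6, 22.4 to 56.9). It had 0 UMIs in the high cells of the saline and uninjured libraries, against 13.4 and 0.256 CPM in their other stromal cells. UMIs of both genes in high cells thus came from the losartan library.

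Cxcl14, a chemokine made by resting epithelia and fibroblasts, was at 1137, 335 and 374 CPM in the high cells of the losartan, saline and uninjured libraries, and at 92.2, 11.2 and 31.5 CPM in the others. Cxcl5, which attracts neutrophils through Cxcr2, was at 2965, 1398 and 164 CPM in high cells and 337, 44.2 and 6.67 CPM in others. The Cxcl5 ratios were 8.80 (8.29 to 9.36), 31.6 (25.4 to 39.8) and 24.7 (15.4 to 40.5). Both chemokines were higher in the high cells of every library, and Cxcl5 was lowest in the uninjured one. Tnc, tenascin C, a matrix protein of wounds, was also higher in the high cells of every library, with 984, 460 and 473 CPM against 169, 22.8 and 15.9 CPM. Unlike Cxcl5, Tnc was at a similar level in saline and uninjured high cells.

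Il1rl1, the interleukin 33 receptor, had 69.0 CPM in losartan high cells and 1.52 CPM in others. Lcn2, a siderophore-binding protein, had 252 and 27.7 CPM. Penk, an opioid peptide precursor, had 38.1 and 1.83 CPM, and was higher still in the high cells of the saline and uninjured libraries, at 185 and 271 CPM against 2.23 and 4.61 CPM in their other stromal cells. Ccn5, a matricellular protein, had 114 and 10.0 CPM in the losartan library and 264 and 2.05 CPM in the uninjured one. Chl1, a cell adhesion molecule, had 372 and 62.7 CPM in the losartan library. Esm1, a secreted proteoglycan, and Ereg, a ligand of the EGF receptor, reached 769 and 389 CPM in saline high cells, against 5.80 and 14.3 CPM in the other saline cells. These levels rest mainly on the 5 saline cells high in both rule genes, at 1890 CPM of Esm1 and 954 CPM of Ereg, against 209 and 88.2 CPM in those high in Mmp3 alone. In the losartan library Esm1 had 93.6 CPM in high and 12.8 CPM in other cells, and Ereg 277 and 46.6 CPM.

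**Figure D2:**
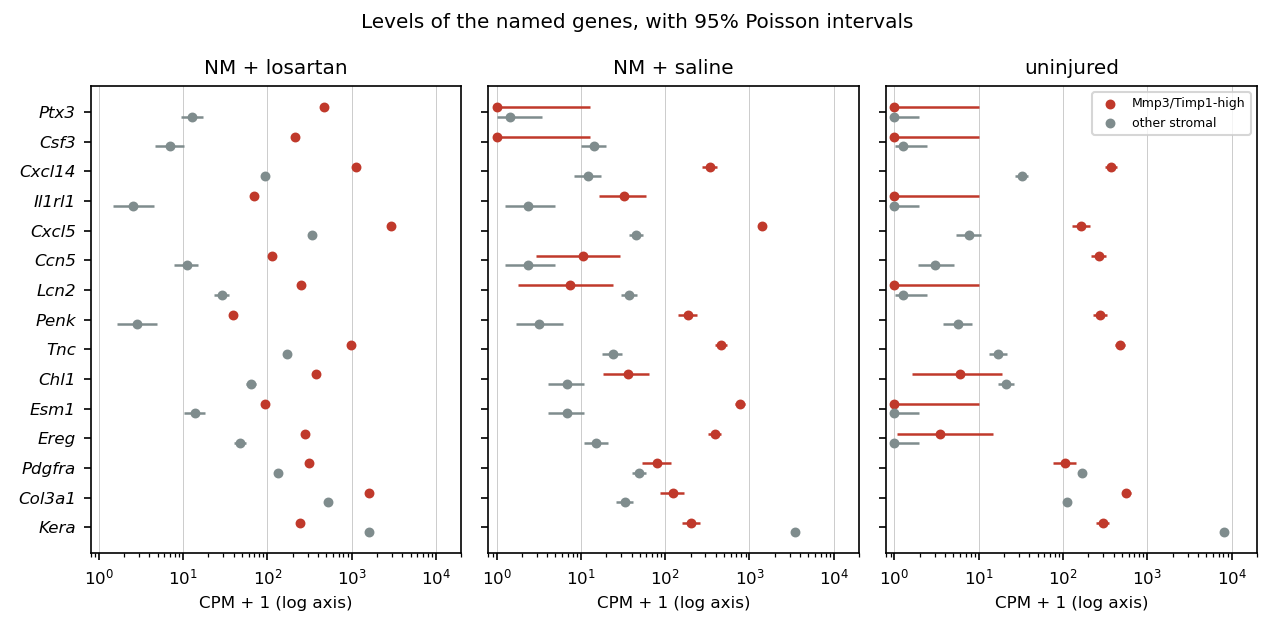
Levels (CPM + 1, log axis) of the 12 genes with the highest ratios in the losartan library and of Pdgfra, Col3a1 and Kera, in Mmp3/Timp1-high (red) and other stromal cells (grey) of each library, with 95% Poisson intervals as bars. Cxcl14, Cxcl5, Tnc and Penk lie to the right in high cells of all 3 libraries, Kera lies to the left in all 3, and Ptx3 and Csf3 are at 0 in saline and uninjured high cells.

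All 12 were at least 2-fold higher among cells of 5000 or more UMIs, and the saline and uninjured libraries had 9 and 5 of the 12 that much higher. Over all tested genes of those libraries the share was 27.4% in saline and 4.90% in uninjured cells. The levels of some rest on few cells. In the losartan high cells 50% of the UMIs came from 14 cells for Ptx3, from 6 for Csf3, from 6 for Il1rl1 and from 3 for Penk, against 36 cells for Cxcl5. After thinning to 2000 UMIs, 66.8% of losartan high cells had a Cxcl5 UMI and 10.2% of other stromal cells, with 1.53% of neutrophils beside them. The thinned shares of Ptx3 were 26.1%, 1.16% and 0.118%, and those of Cxcl14 38.2%, 7.27% and 0.235%.

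Csf3 and Lcn2 were also found in neutrophils. After thinning, 8.93% of high cells and 9.75% of neutrophils had a Csf3 UMI. Lcn2 was at 697 CPM in neutrophils. For each UMI of S100a8, the defining neutrophil gene, losartan high cells had 8.87 UMIs of Lcn2 and 7.41 of Csf3, and neutrophils had 0.0486 and 0.00976. S100a8 itself was at 28.4 CPM in high cells and 39.9 CPM in other stromal cells.

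The 11 genes reported with the lowest ratios in the losartan library were Pf4, Cnbd2, Erbb4, Asl, C77080, Zfp697, Exoc3l2, Ccl6, Nol4l, Zfp444 and Apoe. Pf4, a chemokine of platelets and tissue macrophages, had 2.71 CPM in high cells and 229 CPM in others, Ccl6, a chemokine of myeloid cells, 3.36 and 74.0 CPM, and Apoe, a lipid carrier, 53 and 434 CPM. Zfp697, a zinc finger gene, had 18.6 and 250 CPM. Among cells of 5000 or more UMIs Zfp697 had 18.4 CPM in high cells and 25.1 CPM in others, and 4 of the 11 genes were still 2-fold lower. The Pf4 UMIs of the other stromal cells came from 26 of 463 cells. Among cells of 5000 or more UMIs without macrophage RNA (under 5 per 10000 of C1qa, C1qb, C1qc, Mrc1, Pf4 and Lyz2, chosen after seeing the data) the log2 ratio of Ccl6 was -0.20 and that of Apoe -1.51, against -3.26 and -1.70 in all deep cells and -3.24 and -2.92 in cells of any depth.

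**Figure D3:**
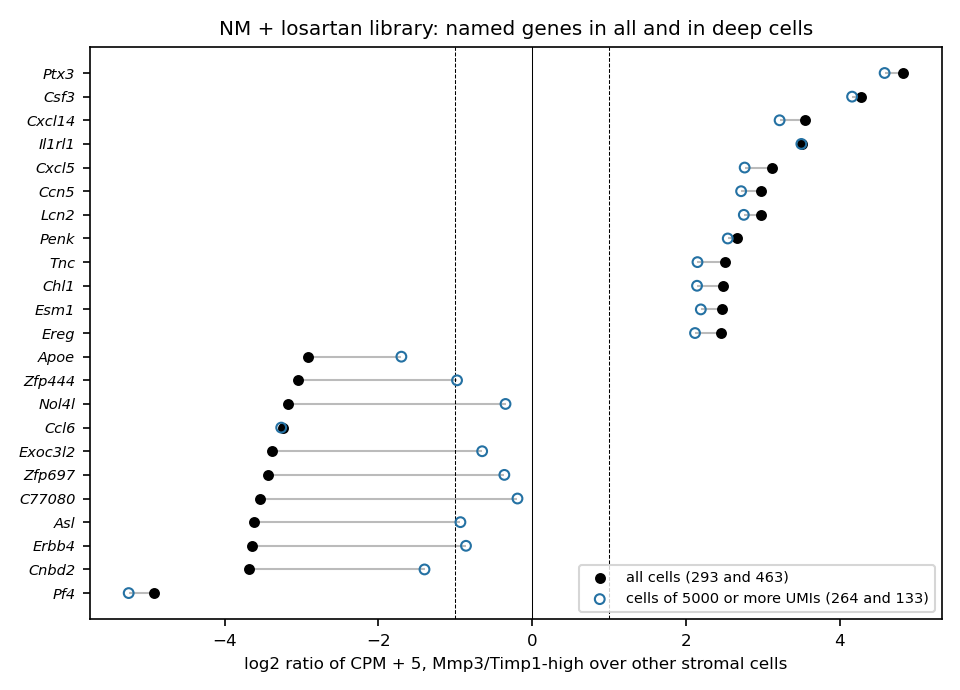
Log2 ratio of CPM + 5, Mmp3/Timp1-high over other stromal cells of the losartan library, for the 12 highest and 11 lowest genes reported of that contrast, in all cells (black) and in cells of 5000 or more UMIs (open blue); dashed lines mark 2-fold. Every one of the 12 higher genes stays right of 2-fold among deep cells, while 7 of the 11 lower genes move inside it.

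Markers of other cell types were summed in each group. In the losartan library their 14 macrophage and monocyte markers summed to 96.6 CPM, against 769 CPM in other stromal cells, with Adgre1 and Ccr2 at 0. The 14 neutrophil markers summed to 111 CPM, against 247 CPM, with Ly6g at 0, and the 14 epithelial markers to 322 CPM, against 666 CPM. Lymphoid markers summed to 3.49 CPM, with Cd3d, Cd3e and Cd3g at 0, and Schwann cell markers to 8.66 CPM, with Sox10 at 0. Mural cell markers summed to 271 CPM, against 195 CPM, with Higd1b at 0, and Pdgfrb, which fibroblasts share, made up 174 CPM of it. In the uninjured library the epithelial sum was 1962 CPM in high and 1666 CPM in other cells, most of it Krt12. The 9 corneal endothelial markers had the highest of these sums in the losartan library, with 2256 CPM in high and 2470 CPM in other cells. Their sums were 1069 and 2578 CPM in saline and 1825 and 4095 CPM in uninjured cells. In losartan high cells Aqp1 made up 1237 CPM and Slc4a4 496 CPM. Slc4a11, Atp1b2 and Cdh2 were at 1.68, 0.517 and 3.75 CPM there. The other stromal cells of the saline library carried more immune RNA than its high cells. Neutrophil markers summed to 163 CPM in saline high and 1013 CPM in other cells, macrophage and monocyte markers to 176 and 2449 CPM, and dendritic markers to 12.8 and 565 CPM. Among saline cells of 5000 or more UMIs these sums were 136 and 3229 CPM, 132 and 3803 CPM, and 7.77 and 2745 CPM. The part of these markers in the results was not tested.

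Among ligands, 21 of 31 chemokines and cytokines passed 10 CPM, and 12 of them were at least 2-fold higher in losartan high cells and 1 lower, with a median log2 ratio of 1.23. Among cells of 5000 or more UMIs 11 were higher and 1 (Ccl8) lower, with a median of 1.05, against -0.13 over all genes. Of all tested genes 1.75% were higher and 3.07% lower, and 1.25% and 1.36% among those deep cells. Beside Csf3, Cxcl14 and Cxcl5 the higher ones included Cxcl1, a neutrophil chemokine (2717 CPM in high and 1094 CPM in other cells), Ccl2, a monocyte chemokine (867 and 354 CPM), Il6 (75.8 and 23.7 CPM) and Cxcl12, the ligand of Cxcr4 (69.2 and 22.8 CPM). The 1 lower gene was Il1b, the interleukin made by myeloid cells, at 8.40 and 73.6 CPM. Among cells of 5000 or more UMIs Il1b had 8.48 CPM in high cells and 3.58 CPM in others, which turns its direction. In the saline library 6 of 16 passing genes were higher and 7 lower, where 27.4% and 16.8% of all tested genes were higher and lower. In the uninjured library 5 of 7 were higher and 0 lower, beside 4.90% and 7.82% of all genes.

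Receptors and inner signals were the next list. Il1r1, the signalling receptor of interleukin 1, was at 202 CPM in losartan high cells and 54.5 CPM in others, and Icam1, an adhesion molecule induced by NF-kB, at 243 and 97.1 CPM. With Il1rl1 these were the 3 of 24 passing genes of the NF-kB and interleukin 1 list that were 2-fold higher (12.5%, beside 1.75% of all tested genes), with 0 lower and a median log2 ratio of 0.51. Among deep cells 3 were higher and 0 lower, with a median of 0.30. Osmr, the oncostatin M receptor, was at 207 and 99.2 CPM, and was 2-fold higher in 14 of 19 other settings. Of 15 passing genes of the interleukin 6 family list 2 were higher and 0 lower, and among deep cells 0 were higher or lower. The feedback inhibitor Nfkbia stayed under 2-fold with a log2 ratio of 0.88. Of the 24 passing immediate early genes 0 were higher and 1 lower, Hspa1b, at 54.3 CPM in high and 121 CPM in other cells, and among deep cells 0 were higher or lower. In the uninjured library 11 of 23 immediate early genes were higher and 1 lower, beside 4.90% and 7.82% of all genes, with a median log2 ratio of 0.88.

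Of the acute phase and innate list, 4 of 21 passing genes were higher and 2 lower, beside 1.75% and 3.07% of all tested genes. Among deep cells the counts were also 4 and 2, beside 1.25% and 1.36%, but the lower 2 were not the same pair. Beside Ptx3 and Lcn2, Saa3, serum amyloid A3, had 892 CPM in losartan high cells and 257 CPM in others (ratio 3.48, 3.24 to 3.74). In the high cells of the saline and uninjured libraries Saa3 had 0 UMIs and 1 UMI. Neutrophils of the losartan library had 111 CPM of Saa3. The lower pair over cells of any depth was Cd14, the lipopolysaccharide co-receptor, at 8.79 and 51.4 CPM, and Saa2. Among deep cells the log2 ratio of Cd14 was -0.81, under 2-fold.

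Among proteases and inhibitors other than the rule genes, 4 of 22 passing genes were higher and 1 lower, and 3 and 0 among deep cells. Over all tested genes the shares were 1.75% and 3.07%, and 1.25% and 1.36% among deep cells. Adam12, a membrane metalloprotease of activated mesenchyme, was at 40.7 CPM in losartan high and 5.17 CPM in other cells, Adamts5, an aggrecanase, at 244 and 83.7 CPM, and Serpina3n, a serine protease inhibitor, at 814 and 228 CPM. Serpinf1, an antiangiogenic serpin, was lower at 639 and 1536 CPM, a log2 ratio of -1.26, and of -0.47 among deep cells.

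Of 22 passing scar matrix and myofibroblast genes 3 were higher (13.6%, beside 1.75% of all tested genes) and 0 lower, and among deep cells 4 were higher (18.2%, beside 1.25%) and 0 lower. The 3 were Tnc, Tagln, a smooth muscle actin-binding protein (39.6 and 5.17 CPM), and Postn, periostin (55.6 and 17.7 CPM). Acta2, smooth muscle actin and the defining gene of myofibroblasts, had 74.7 CPM in losartan high and 41.1 CPM in other cells, 16 and 5.35 CPM in saline cells, and 0 and 1.28 CPM in uninjured cells. Of 18 passing collagens 1 was higher, also among deep cells: Col3a1, a fibril collagen of early scars, with 1600 and 531 CPM. In the list of TGF-beta signalling, the pathway that drives myofibroblasts, 3 of 26 were higher (11.5%, beside 1.75% of all genes): Ltbp2, Fst and Inhba. Fst, which binds activins, had 265 and 68.2 CPM, and Ltbp2, a matrix microfibril protein, 61.4 and 14.3 CPM. The list median was 0.24 in all cells and 0.00 among deep cells.

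Fibroblast markers split. Pdgfra, the platelet-derived growth factor receptor of most fibroblasts, was at 308 CPM in losartan high and 134 CPM in other cells, at 79.8 and 48.2 CPM in saline cells, and at 105 and 167 CPM in uninjured cells, so that its direction differed there. Igfbp4 was at 3056 and 1403 CPM in losartan cells. Lower were Clec3b (4.52 and 30.1 CPM), Igfbp6 (50.2 and 180 CPM), Ly6c1 (6.59 and 34.1 CPM), Igfbp5 (266 and 561 CPM), Gsn (254 and 515 CPM) and Cd34, a surface marker of keratocytes and of adventitial fibroblasts (60.4 and 138 CPM), so that of 25 passing genes 2 were higher and 6 lower. Among deep cells 1 was higher and 6 lower. Of all tested genes 1.75% were higher and 3.07% lower, and 1.25% and 1.36% among deep cells. Of the 6 passing genes of the angiotensin system 0 were higher or lower. Agtr1a, the receptor that losartan blocks, had 0.388 CPM in losartan high cells and 0.304 CPM in others, which is 3 UMIs and 1 UMI. In the uninjured library it had 9 UMIs (22.4 CPM) in high cells and 1 UMI in others.

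**Figure D4:**
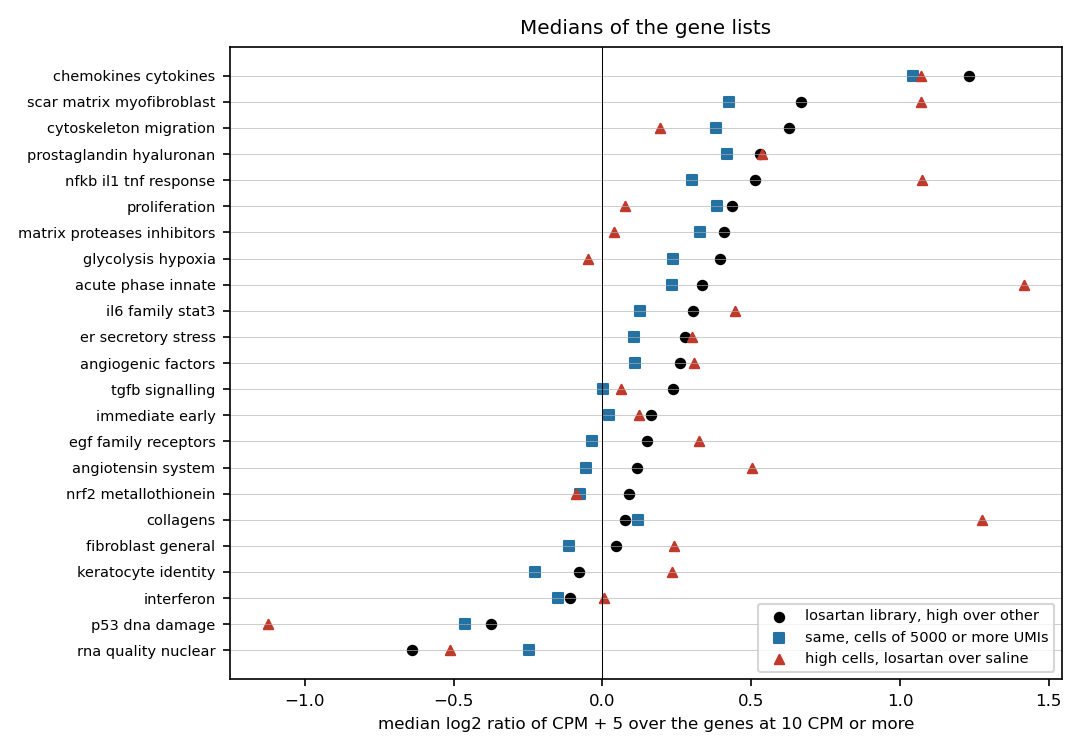
Median log2 ratio of CPM + 5 of each gene list: Mmp3/Timp1-high over other stromal cells of the losartan library in all cells (black) and in cells of 5000 or more UMIs (blue), and losartan over saline Mmp3/Timp1-high cells (red). Chemokines and cytokines have the highest black and blue medians (1.23 and 1.05), and the p53 list has the lowest red median (-1.12).

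Within the losartan library the levels of other genes changed along the Mmp3 and Timp1 level. In cells of 5000 or more UMIs, in bins of 0, above 0 to 5, 5 to 10, 10 to 20, 20 to 50, 50 to 100 and 100 or more per 10000, Cxcl5 was at 41.6, 356, 635, 784, 1340, 2761 and 4380 CPM. Ptx3 was at 0, 20.7, 8.89, 57.7, 77.2, 291 and 848 CPM. Tnc was at 238, 184, 272, 387, 439, 693 and 1522 CPM. Cxcl5 was higher in each successive bin, and Ptx3 and Tnc did so from 5 per 10000 on. Kera was at 416, 485, 542, 543, 313, 200 and 155 CPM, with its lowest level in the top bin. Cdkn1a, the p53-induced cell cycle inhibitor p21, was at 2905 CPM in the first bin and 1092 CPM in the last. The first bin held 17 cells and the others 35 to 121, and the median depth of these bins ran from 8201 to 29875 UMIs, so that depth and level changed together. Saa3 and Cxcl14 did not form a steady series, with 138 and 439 CPM at 10 to 20 per 10000 and 1502 and 2065 CPM at 100 or more.

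**Figure D5:**
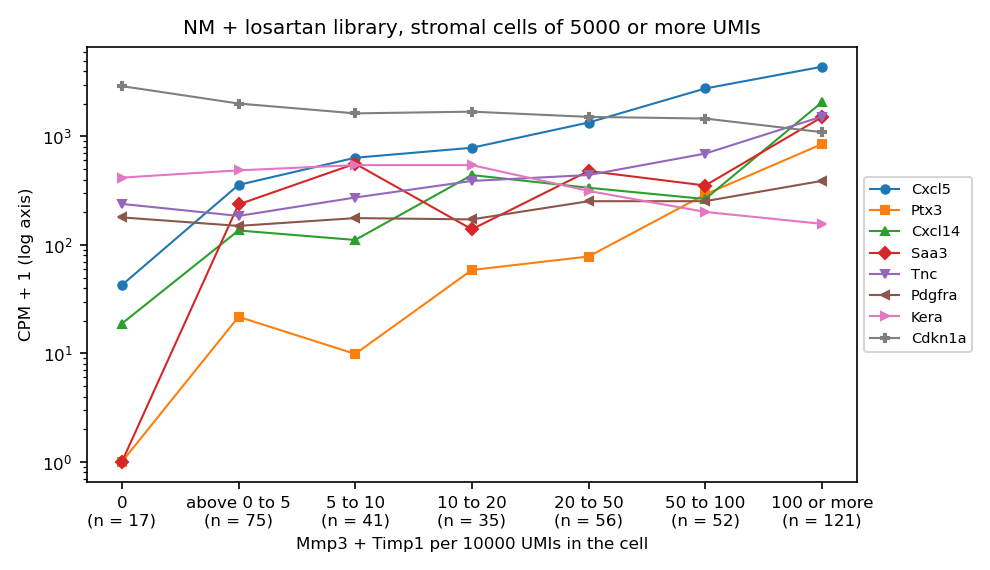
Levels (CPM + 1, log axis) of 8 genes in stromal cells of 5000 or more UMIs of the losartan library, by bin of Mmp3 plus Timp1 per 10000 UMIs, with the number of cells under each bin. Cxcl5, Ptx3 and Tnc end at 4380, 848 and 1522 CPM in the top bin, where Kera has its lowest level of 155 CPM; the first bin holds only 17 cells.

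The kinds of high cells differed. In the losartan library the 107 cells high in both genes had 4579 CPM of Cxcl5, the 129 cells high in Mmp3 alone 2252 CPM and the 43 cells high in Timp1 alone 725 CPM. Ptx3 was at 761, 386 and 13.4 CPM and Saa3 at 1341, 814 and 50.6 CPM in the same order. The cells high in Timp1 alone therefore had little of either acute phase gene, at a median depth of 31150 UMIs against 31041 and 23228 UMIs in the other kinds. Acta2 was at 118 CPM in cells high in both, 18.7 CPM in those high in Mmp3 alone and 103 CPM in those high in Timp1 alone, and Esm1 at 166, 25 and 80.6 CPM. Col1a1, a rule gene, was at 6201, 10519 and 3449 CPM. Cells with a Cxcl5 UMI after thinning carried Ptx3 in 35.3% and Cxcl14 in 48.1% of 187 cells, against 7.53% and 18.3% of the 93 high cells without one, and Kera in 15.5% against 44.1%.

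Between the injured libraries, 690 of 8182 tested genes (8.43%) were at least 2-fold higher in losartan than in saline high cells and 517 (6.32%) at least 2-fold lower. There were 293 losartan and 34 saline high cells, of unlike depth, and 264 and 11 of these reached 5000 UMIs. Among those deep cells 8.99% of 8166 genes were higher and 8.24% lower. Of 18 passing collagens 12 were higher in losartan high cells and 0 lower (14 and 0 among deep cells). Col3a1 had 1600 CPM in losartan and 121 CPM in saline high cells, Col11a1 231 and 41.5 CPM, and Col14a1 96.3 CPM and 0 UMIs. Without Col1a1 and Col1a2, which the stromal rule used, the summed collagens were 7756 CPM in losartan and 2607 CPM in saline high cells. In the other stromal cells of the same libraries they were 6229 and 5355 CPM. Among cells of 5000 or more UMIs these sums were 7756 and 2577 CPM in high cells, and 6618 and 2880 CPM in others. The gap between the libraries was then also seen in the other stromal cells.

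Of 21 acute phase and innate genes 14 were higher and 1 lower in losartan than in saline high cells. The shares over all tested genes were 8.43% and 6.32%. The list summed to 18067 and 12184 CPM in losartan and saline high cells, and to 11569 and 5061 CPM in their other stromal cells. Against a floor of 3 counts over the saline group, Saa3 was 93.2-fold, Ptx3 49.5-fold and Csf3 22-fold higher. That floor covers counting error of UMIs only, and the true differences may be smaller. Of losartan high cells 37.2% had a Saa3 UMI, 47.8% a Ptx3 UMI and 21.8% a Csf3 UMI, and the saline group had only 34 cells. Cp, ceruloplasmin, had 155 CPM in losartan and 3.19 CPM (1 UMI) in saline high cells. The 1 lower gene was Spp1, osteopontin, at 99.0 CPM in losartan and 852 CPM in saline high cells. The NF-kB and interleukin 1 list had 13 of 24 genes higher and 0 lower. Among the higher ones were Nfkb1 (1076 and 214 CPM), Tnfaip3 (147 and 31.9 CPM) and Vcam1 (546 and 150 CPM). This list summed to 10835 and 6223 CPM in high cells, and to 7172 and 2060 CPM in the other stromal cells. The sums of both lists were thus higher in the losartan library in other stromal cells too. Ccl2 had 867 CPM in losartan and 38.3 CPM in saline high cells.

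The p53 list, genes induced by DNA damage such as an alkylating agent causes, went the other way. Of 25 passing genes 0 were higher and 15 lower in losartan than in saline high cells, with a median log2 ratio of -1.12. Over all tested genes the shares were 8.43% and 6.32%. Among deep cells 0 were higher and 12 lower, beside 8.99% and 8.24% of all genes. Cdkn1a had 1319 CPM in losartan and 2894 CPM in saline high cells, and 189 CPM in uninjured ones. Mdm2, the ubiquitin ligase of p53, had 401, 925 and 49.8 CPM, and Ccng1, cyclin G1, 139, 463 and 42.3 CPM. The uninjured high cells were lowest in all 3. The summed list was 3667 CPM in losartan and 7687 CPM in saline high cells, and 4745 and 2994 CPM in their other stromal cells. Among cells of 5000 or more UMIs the sums were 3679 and 7472 CPM in high cells, and 5113 and 6773 CPM in others. The saline library was thus the higher one in those deep other cells too. Within the losartan library 4 of 26 genes of this list were lower in high than in other cells and 0 higher. Of all tested genes 3.07% were lower there and 1.75% higher. Within the saline library 13 of 25 genes of the p53 list were higher and 1 lower, beside 27.4% and 16.8% of all genes. But among its cells of 5000 or more UMIs (11 high and 52 other) 3 of 26 were higher and 6 lower. These counts stand beside 19.3% and 17.3% of all genes and beside the immune marker sums given above for those cells.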

How the data were processed

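UMI count matrices were used as deposited, 1 per library; per the file headers the authors' counts came from Cell Ranger 8.0.0, on GRCm38, per the submitters' processing notes. Any cell filter or free RNA correction by the authors is not given in the sources used here. Counts were summed over the cells of a group, scaled to CPM and compared as log2 ratios of CPM + 5 for genes at 10 CPM or more over both groups; 2-fold was the limit for a call. Ratio intervals are exact conditional binomial and level intervals exact Poisson (95%). The members, gene lists and limits were chosen with earlier results of these data known. The text names the 12 highest and 12 lowest genes by ratio in the losartan library (a UMI in 20 or more cells of the higher group; 1 of the lowest is not reported here), up to 4 per list, cell type markers, and Agtr1a, Acta2, Kera, Pdgfra, Cxcl12 and Il6; Cp, Nfkb1, Tnfaip3, Vcam1, Col11a1, Col14a1, Spp1, Cdkn1a, Mdm2, Ccng1, Nfkbia, Ccl8 and other list members outside the rule were chosen after their values were seen. Doublets were scored against simulated ones and kept; 5 high cells of the losartan library and 0 of the others were marked. Gene positions are from GENCODE M 21 and promoters from RefSeq. Python 3.11.15, numpy 2.4.6, scipy 1.17.1, pandas 2.3.3 and scikit-learn 1.9.0 were used, and the ratios were checked on simulated counts.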

Additional observations from a re-analysis of the deposited data

Results flagged for a closer look

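Of the genes named by the rule, 9 had a log2 ratio of Mmp3/Timp1-high over other stromal cells that was 2-fold or more one way in the losartan library and the other way in another library, with counting intervals that leave out a ratio of 1 in both. Over all called genes tested in both, 7 of 88 higher and 8 of 231 lower genes were 2-fold opposite in the saline library, and 6 of 68 and 10 of 184 in the uninjured one. Each group is 1 library, so these differences were not tested. The intervals treat every UMI as independent, while the UMIs of a gene can lie in few cells, so they are too narrow for such genes. Csf3 was at 4.28 (losartan) and -1.88 (saline, with 0 UMIs in high cells), and Lcn2 was at 2.98 (losartan) and -1.85 (saline), and Inhba, a subunit of activin A, at 1.33 and -1.81. Perp, a p53 target, was at -1.36 (losartan) and 1.33 (saline), and Ly6c1 at -1.75 and 1.42. Igfbp6, which binds insulin-like growth factor 2, was at -1.75 in the losartan library, 2.51 in the saline library and 4.19 in the uninjured one. Against the uninjured library, Chl1 was at 2.48 in the losartan and -1.32 in the uninjured library, Clec3b at -1.88 and 2.19, and Lyz2, a lysozyme of myeloid cells, at -2.40 and 1.04. Inhba in saline high cells rests on 1 UMI (3.19 CPM), Lcn2 on 2 UMIs (6.38 CPM) and Ly6c1 on 3 UMIs (9.57 CPM). By share of cells Lcn2 did not turn, with a UMI in 5.88% of saline high and 3.82% of other stromal cells. A Csf3 UMI was found in 1.84% of the other stromal cells of the saline library, which had only 34 high cells. In uninjured high cells Chl1 was at 4.98 CPM and Lyz2 at 17.4 CPM. For each UMI of S100a8 the other stromal cells of the saline library had 0.164 UMIs of Lcn2, and its neutrophils 0.147.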

How the results depend on the processing

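No paired analysis was possible because each group has 1 library. The share of Mmp3/Timp1-high cells in the losartan library (38.8%) was 47.0% at a limit of 5 per 10000, 32.8% at 20, 44.9% in cells of 2000 or more UMIs, 66.5% in cells of 5000 or more and 46.2% after thinning. The 146 higher and 257 lower genes became 1188 and 780 after thinning, 1295 and 469 with every cell weighing the same, and 2005 and 546 against other cells of 2000 or more UMIs with 0 UMIs of Mmp3 and Timp1. They were 77 and 61 at a minimum of 50 CPM, 492 and 725 at 1.5-fold, and 21 and 67 at 4-fold. The lower genes alone moved to 553 with no minimum, 113 in cells of 5000 or more UMIs and 108 in such cells without macrophage RNA. The cause was not tested. Log2 ratios that turned were Inhba (-0.55 at a stromal limit of 200 per 10000), Il1b (0.65 in cells of 5000 or more UMIs, 0.63 in those without macrophage RNA), Slc16a3 (-0.41 after thinning), Igfbp6 (0.35 against cells with 0 UMIs of the rule genes), Lyz2 (1.05) and Pf4 (0.14, both in deep cells without macrophage RNA). Those are ratios past 2-fold that changed sign. Counting any change of sign, 8 of 23 list medians (interferon, keratocyte identity, general fibroblast, EGF, TGF-beta, angiotensin, NRF2 and immediate early) and 14 of 109 named genes did so in at least 1 of 19 settings, in 22 of 437 and 28 of 2071 values. Of the 437 list values 27 moved by over 1.5-fold. Settings without macrophage RNA, and the depth limits on the saline and losartan against saline contrasts, were chosen after seeing the data. With 34 saline high cells, a gene at 0 UMIs could still be at 9.57 CPM by counting error alone, and higher where its UMIs lie in few cells.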
